A study of Mus musculus with 3 samples.

Results

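The clustered histone genes are the Hist1h, Hist2h, Hist3h and Hist4h genes of the mouse, and the peaks described here are the Isl1 peaks assigned to them. They were found by taking the deposited list of Isl1 peaks, dropping lines that repeat another line in full, and keeping each peak whose gene symbol starts with one of those 4 prefixes. This gave 8 peaks of the 14082 distinct peaks in the list of 14165 lines. All 8 carried Hist1h symbols and lay on chromosome 13, and 0 were assigned to Hist2h, Hist3h or Hist4h genes. Each of the 8 peaks was assigned to a different gene, and 0 of the 8 stood on a repeated line.

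Isl1 is a transcription factor of the LIM-homeodomain family that acts in progenitors of the second heart field, and the question was where it occupied chromatin in cardiac progenitor cells (CPCs). Chromatin immunoprecipitation followed by sequencing (ChIP-Seq) was done on CPCs at day 5 of directed differentiation of E14 Tg(Nkx2–5-EmGFP) embryonic stem (ES) cells, a mouse line that carries a green fluorescent reporter of the cardiac gene Nkx2-5. The 3 samples were 2 replicates precipitated with an anti-Isl1 antibody from DSHB and 1 input, all from this 1 line with no second genotype or treatment, and nothing in the labels states whether the replicates were separate differentiations. Both replicates were combined by the authors into 1 peak list, which holds a start, an end, a signed distance of its midpoint from the nearest transcription start site (TSS), a transcript and a symbol for each peak. It holds no score and no read number, so the depth is unknown, no replicate error can be attached to a value below, and a peak says only that reads passed the caller's threshold in that interval. The list gives no expression values, so the cell type could not be checked against its markers.

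The clustered histone genes encode the histones that package newly replicated DNA. They are short, mostly have no introns, and give mRNAs that end in a stem-loop instead of a poly(A) tail and are made in S phase. H2A, H2B, H3 and H4 form the nucleosome core and H1 binds the linker DNA, and H2A and H2B genes often stand head to head over a shared promoter. Because many copies of each class are kept nearly alike, a sequencing read from inside a histone coding sequence can fit several genes.

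The sequence inside the peaks shows that likeness. The following 90 bases are coding bases 181 to 270 of H2A, counted from the first base of the start codon. They are given 5′ to 3′ in coding direction from the mm9 genome for Hist1h2ad (chr13:23666520-23666609, + strand), for the Hist1h2al gene (chr13:51298180-51298269, − strand) and for the H2A-like stretch under the peak assigned to Hist1h2bb (chr13:23838157-23838246, − strand). Capitals mark bases that differ from Hist1h2ad.
Hist1h2ad: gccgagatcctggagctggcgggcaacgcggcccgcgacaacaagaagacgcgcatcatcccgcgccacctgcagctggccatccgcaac
Hist1h2al: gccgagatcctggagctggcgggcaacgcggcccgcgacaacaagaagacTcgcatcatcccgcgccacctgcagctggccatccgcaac
Hist1h2bb peak: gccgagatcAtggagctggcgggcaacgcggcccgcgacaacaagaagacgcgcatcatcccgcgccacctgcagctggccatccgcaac
Hist1h2an (chr13:21878818-21878907), Hist1h2ah (chr13:22127152-22127241) and Hist1h2ag (chr13:22134527-22134616), which lie on the − strand and have peaks, hold the same letters as Hist1h2ad over these 90 bases. Hist1h2ae (chr13:23662708-23662797, − strand), the H2A gene without a peak that is nearest to a peak, holds them too.

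The other coding sequence found under the peaks was H3. The same 90 coding positions are shown for the H3 genes with a peak, Hist1h3i (chr13:21874970-21875059) and Hist1h3a (chr13:23853953-23854042), both on the − strand, with capitals where they differ.
Hist1h3i: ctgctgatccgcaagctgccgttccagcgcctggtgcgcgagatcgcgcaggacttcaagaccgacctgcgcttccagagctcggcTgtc
Hist1h3a: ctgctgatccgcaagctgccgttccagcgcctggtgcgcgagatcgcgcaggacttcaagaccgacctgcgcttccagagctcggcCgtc

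To see which histones were represented, the peaks were set against all clustered histone genes of the GENCODE annotation of mm9, which lists 67 as protein-coding and 3 as pseudogenes. By the assigned symbols, H2A genes had 5 peaks for 19 genes (26.3%, 95% Wilson interval 11.8 to 48.8%), H3 genes 2 for 11 (18.2%, 5.14 to 47.7%) and H2B genes 1 for 18 (5.56%, 0.988 to 25.8%). The 13 H4 genes and the 6 H1 genes had 0, with upper bounds of 22.8% and 39.0%. These intervals overlap, cover counting error only, and treat genes of like sequence as independent. In all, 8 of 67 genes had an assigned peak (11.9%, 6.18 to 21.8%), against a background of 34.20% of 22238 protein-coding genes and 8.03% of 1582 single-exon protein-coding genes under 1 kb outside the histone list. The histone genes were therefore below the share of all genes, and the 8.03% of other short single-exon genes lay inside their interval.

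By the sequence under the peak, the split was not the same as by the symbols. Each peak was aligned to the coding sequences of the clustered histone genes. The best match was H2A in 6 of 8 peaks (75%, 40.9 to 92.9%) and H3 in 2 of 8 (25.0%, 7.15 to 59.1%), and 0 matched H2B, H4 or H1 best. The change from the symbols came from the peak assigned to Hist1h2bb, an H2B gene, whose sequence matched H2A. Across all 14082 peaks, the 8 histone peaks and 1 other shared any run of 31 bases with a clustered histone coding sequence. The other was the peak at H2afx, the gene of the H2A variant that is phosphorylated at DNA breaks, with 120 such runs of H2A. The 7 peaks at an H2A or H3 gene held 346 to 378 such runs, and the Hist1h2bb peak held 169.

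The 8 peaks fell in the following places, given in mm9 with starts uncertain by 1 bp because the list does not say whether it counts from 0 or 1. Hist1h3i (chr13:21874754-21875371) and Hist1h2an (chr13:21878658-21879201) stood in the proximal part of the cluster. Hist1h2ah (chr13:22126941-22127494) and Hist1h2ag (chr13:22134289-22134910) formed a second pair of neighbours. Hist1h2ad (chr13:23666267-23666929), Hist1h2bb (chr13:23837946-23838395) and Hist1h3a (chr13:23853768-23854270) lay in the distal part. Hist1h2al (chr13:51297770-51298752) lay 27.3 Mb from the end of the cluster. GENCODE lists Hist1h2al as protein-coding, while RefSeq on GRCm38 names the same transcript H2af-ps2 and calls it a transcribed pseudogene.

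The Hist1 cluster itself holds 54 of the protein-coding genes over 2.22 Mb and falls into 4 blocks separated by over 100 kb without a histone gene. The block from Hist1h2bl to Hist1h2br held 18 genes in 122 kb and 2 peaks. The block from Hist1h2ah to Hist1h2bj held 5 genes in 8.56 kb and also 2 peaks. The block from Hist1h4h to Hist1h1a held 29 genes in 233 kb and 3 peaks, and the block of Hist1h2ba and Hist1h2aa held 2 genes in 1.08 kb and 0 peaks. Between Hist1h2bj and Hist1h4h, in a stretch of 1487 kb without histone genes, lay the 1 further peak of the span, which is assigned to the vomeronasal receptor gene Vmn1r221 at 6924 bp from its TSS. Beyond the span the closest peaks were 534 kb before it at Trim27 and 345 kb after it at Carmil1.

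**Figure D1:**
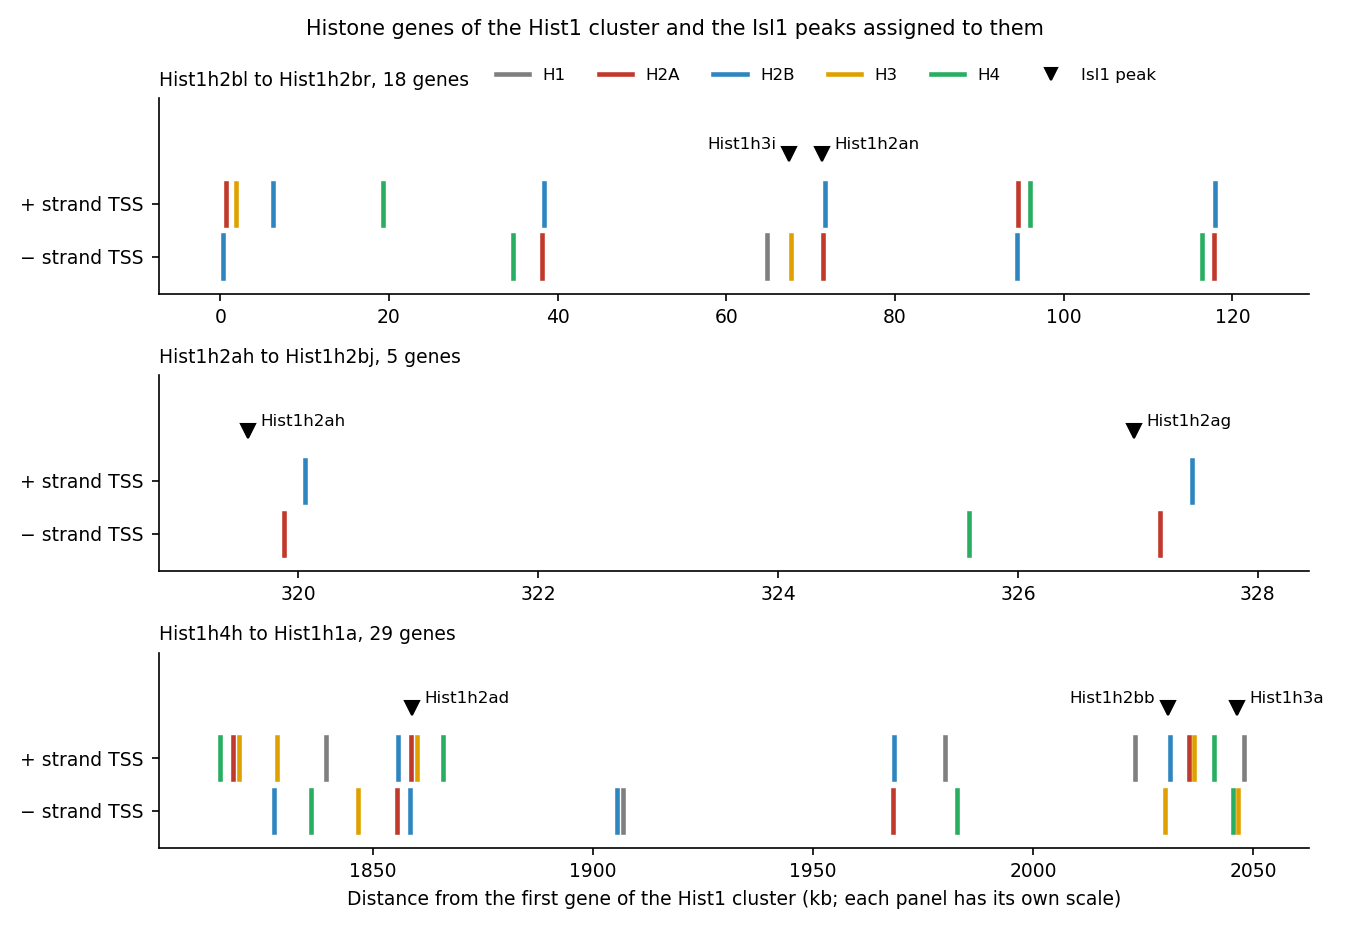
Positions of the protein-coding Hist1 genes (coloured ticks at the TSS, by histone class and strand) and of the Isl1 peaks (black triangles) in the 3 blocks that hold peaks. The x axis is the distance from the start of Hist1h2bl in kb, with its own scale in each panel, and the 7 triangles stand at or next to H2A ticks except at Hist1h3i, Hist1h2bb and Hist1h3a.

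The smaller clusters held none of these peaks. The 9 Hist2 genes, spread over 59.1 kb of chromosome 3, the 2 Hist3 genes on chromosome 11 and the 1 Hist4 gene on chromosome 6 had 0 assigned peaks. The closest peaks were at Fcgr1 63.6 kb after the Hist2 cluster, at Rnf187 9.81 kb before the Hist3 cluster and at H2afj 12.2 kb after the Hist4 gene.

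Spacing along the chromosome varied over several orders of magnitude. The closest pair was Hist1h3i and Hist1h2an, with midpoints 3.87 kb apart and no histone gene between them. Hist1h2ah and Hist1h2ag were 7.38 kb apart with 2 histone genes between them, and Hist1h2bb and Hist1h3a were 15.8 kb apart with 4 between them. The other spacings were 172, 248, 1532 and 27444 kb. Of the 7 spacings, 2 were within 10 kb (28.6%, 8.22 to 64.1%), against 6.81% of the spacings between neighbouring peaks of the whole list. The median spacing was 172 kb, and the median between neighbouring peaks of the whole list was 109 kb. These are unlike measures, because the histone spacings skip other peaks, 1 between Hist1h2ag and Hist1h2ad and 139 between Hist1h3a and Hist1h2al. The 7 spacings are few, and their median fell to 93.7 kb without Hist1h2al, which lies outside the cluster.

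The peaks were centred on sequence of the coding type, inside the assigned gene for 7 of 8 and upstream of it for Hist1h2bb. All 8 were within 1 kb of the assigned TSS (67.6 to 100% by the Wilson interval), where 38.50% of all peaks were. The midpoint lay downstream of the TSS in 7 of 8 (87.5%), against 80.90% of the peaks within 1 kb of a TSS, so the direction was shared with most such peaks. The distances from TSS to midpoint were 158 bp at Hist1h2an, 174 bp at Hist1h2al, 204 bp at Hist1h3i, 219 bp at Hist1h2ag, 236 bp at Hist1h3a, 295 bp at Hist1h2ah and 348 bp at Hist1h2ad, and −433 bp at Hist1h2bb. Their median of 211.5 bp stood beside 152 bp for all peaks within 1 kb of a TSS. The midpoint thus lay inside the transcribed stretch, which is 378 to 572 bp long, at 7 of the 8 genes, and outside it at Hist1h2bb.

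Where the edges fell shows this more directly. The assigned TSS was inside the peak in 5 of 8 cases (62.5%). The exceptions were Hist1h2ah, whose peak started 18 bp downstream of the TSS, Hist1h2ad, whose peak started 17 bp downstream, and Hist1h2bb, whose peak ended 208 bp upstream. In 7 of 8 peaks (87.5%) the whole coding sequence of the assigned gene was covered. At the 6 genes of the cluster other than Hist1h2bb, the peak began 48 to 132 bp before the start codon and ended 40 to 200 bp after the stop codon, and it covered 91.4 to 100% of the annotated gene. The peak centre lay inside the coding match in all 8, and the centre of the match was at −63.5 to 37.0 bp from the peak centre in coding direction. In the whole annotation, 25.00% of 22380 protein-coding genes had a TSS inside a peak, against 5 of the 67 clustered histone genes (7.46%, 3.23 to 16.3%).

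**Figure D2:**
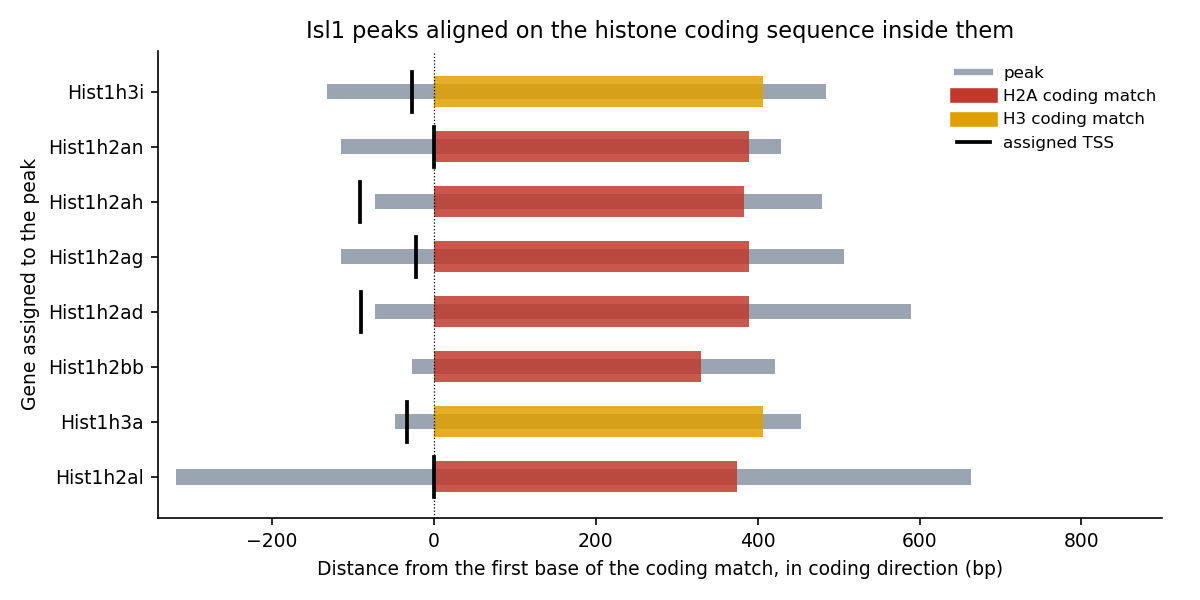
The 8 peaks (grey bars) aligned on the histone coding sequence inside them (red for H2A, yellow for H3), with the x axis in bp from the first base of that match in coding direction and a black tick at the assigned TSS. Each peak runs past both ends of the coded stretch, by 27 to 318 bp before it and 40 to 290 bp after it, and the Hist1h2bb TSS lies outside its bar and is not drawn.

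The peak assigned to Hist1h2bb stood between Hist1h2bb and the H3 gene Hist1h3c. It started 475 bp upstream of the Hist1h3c TSS and ended 208 bp upstream of the Hist1h2bb TSS, so it overlapped neither gene. It contained the annotated pseudogene Gm11336 (chr13:23838035-23838368, 334 bp, − strand), a name added after its values were seen. Against the coding sequence of Hist1h2ad, the stretch aligned over 331 bases with 314 identical (94.9%), and 58 bases of the gene had no counterpart in it. All 58 lay in the first 180 coding bases. From coding base 181 to 389, where the alignment ended, the match was closer, with 207 of 209 bases identical (99.0%). The first 180 coding bases of Hist1h2ad (chr13:23666340-23666519, + strand) and their counterpart in the peak (chr13:23838247-23838368, − strand) follow, with capitals for the 58 bases that are missing from the pseudogene.
Hist1h2ad: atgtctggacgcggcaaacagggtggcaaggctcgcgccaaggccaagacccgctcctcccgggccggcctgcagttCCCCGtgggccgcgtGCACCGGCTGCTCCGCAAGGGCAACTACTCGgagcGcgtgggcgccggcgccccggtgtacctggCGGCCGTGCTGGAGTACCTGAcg
Hist1h2bb peak: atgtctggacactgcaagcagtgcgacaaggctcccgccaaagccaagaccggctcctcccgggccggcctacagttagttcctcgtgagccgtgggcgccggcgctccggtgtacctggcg

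Head-to-head gene pairs allow the side of the peak to be read. The annotation holds 12 pairs of an H2A and an H2B gene whose TSSs lie within 1 kb and point apart, with 167 to 305 bp between the TSSs. Of these, 4 had a peak, at Hist1h2an/Hist1h2bp, Hist1h2ah/Hist1h2bk, Hist1h2ag/Hist1h2bj and Hist1h2bf/Hist1h2ad. The peak was on the H2A side in 4 of 4 and on the H2B side in 0. It reached over 47.1% of the sequence between the TSSs at Hist1h2an/Hist1h2bp and 34.8% at Hist1h2ag/Hist1h2bj, and over 0% at the other pairs. Widening the reach to any peak within 1 kb of a TSS gave 15 genes, which added the H2B partners Hist1h2bf, Hist1h2bj, Hist1h2bk and Hist1h2bp, the H3 genes Hist1h3c and Hist1h3d, and the H4 gene Hist1h4a. No share of other head-to-head pairs, or of all protein-coding genes under this wider rule, was taken. The 4 pairs and the 15 genes therefore stand without a background and cannot be called high or low.

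The shared promoters of the pairs whose peaks held a TSS are printed because they are the regulatory sequence closest to the peaks. They run from the base next to the H2A TSS to the base next to the H2B TSS, at chr13:21879088-21879329 and chr13:22134819-22135082 of mm9. They are given on the − strand, which is the strand of the H2A gene, so that the last bases adjoin its TSS and the peak covers the right-hand part. Capitals mark the TATA box core TATAAA and, on either strand, the string CCAAT.
Hist1h2an/Hist1h2bp: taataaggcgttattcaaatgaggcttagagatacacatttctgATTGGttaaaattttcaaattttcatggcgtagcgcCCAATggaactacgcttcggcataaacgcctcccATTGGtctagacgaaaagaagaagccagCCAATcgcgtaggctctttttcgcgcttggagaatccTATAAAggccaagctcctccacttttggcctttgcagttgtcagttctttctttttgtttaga
Hist1h2ag/Hist1h2bj: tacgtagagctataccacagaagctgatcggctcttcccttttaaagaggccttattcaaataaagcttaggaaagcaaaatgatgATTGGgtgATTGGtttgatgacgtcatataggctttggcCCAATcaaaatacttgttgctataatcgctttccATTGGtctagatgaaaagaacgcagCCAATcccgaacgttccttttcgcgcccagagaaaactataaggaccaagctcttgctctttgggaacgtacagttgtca

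Promoter strings were counted on both strands from 250 bp before to 50 bp after the TSS. TATAAA, the TATA box core, was in 6 of the 8 promoters of genes with a peak (75%), in 56.7% of the clustered histone promoters and in 13.4% of all protein-coding promoters. CCAAT, which the factor NF-Y reads, was in 8 of 8, in 85.1% of the clustered histone promoters and in 37.9% of all. The octamer ATTTGCAT, which POU factors read and which is known from H2B promoters, was in 2 of 8 (25.0%), in 22.4% and in 1.72%. For these strings the genes with a peak were closer to all clustered histone genes, of which they are part, than to promoters at large. By class, CCAAT was in 19 of 19 H2A, 18 of 18 H2B, 6 of 6 H1 and 10 of 11 H3 promoters. It was in 4 of 13 promoters of H4, a class without a peak, so the 8 of 8 goes with the classes of these genes. TAATTG, a core of the kind that homeodomain proteins bind, was in 1 of 8 promoters (12.5%), in 8.96% of the clustered histone promoters and in 7.32% of all. The longer CTAATTG was in 0 of 8, 5.97% and 1.83%. CTAATTG contains TAATTG, and the reverse complement of TAATTG can overlap CCAAT. In the 12 head-to-head pairs of H2A and H2B genes, with 167 to 305 bp between the TSSs, the windows of the partners overlap. A string there can be counted for both genes, so the histone promoters are not independent. The 4 clustered histone promoters with CTAATTG were 2 of H2A and 2 of H2B genes.

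Inside the peaks themselves, which are shorter than most, TAATTG occurred in 1 of 8, at Hist1h3a, against 8.92% of all peaks. CTAATTG occurred in 0 of 8, against 2.23%. TATAAA occurred in 3 of 8, at Hist1h2an, Hist1h2ag and Hist1h2ad, against 15.5%, and CCAAT in 5 of 8, against 49.1%. The TATAAA in the Hist1h2ad peak, which starts 17 bp downstream of the TSS, is not upstream of that TSS. Nor is the one in the Hist1h2ag peak, since the promoter part of that peak printed above holds none. The octamer was in 0 of 8 peaks, against 1.70%. A string says only that these letters are in the window.

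The histone peaks were narrow. The 3 narrowest were Hist1h2bb with 449 bp, Hist1h3a with 502 bp and Hist1h2an with 543 bp. The 3 widest were Hist1h2al with 982 bp, Hist1h2ad with 662 bp and Hist1h2ag with 621 bp. Hist1h2ah had 553 bp and Hist1h3i 617 bp, so the 7 peaks of the cluster lay within 449 to 662 bp and Hist1h2al stood apart from them. The median of the 8 was 585 bp, against 947 bp for all peaks and 1050 bp for peaks within 1 kb of a TSS. Under 700 bp were 7 of 8, against 23.30% of all peaks and 11.00% of those within 1 kb of a TSS. Each of the 7 cluster peaks was wider than 0.535 to 8.05% of the peaks within 1 kb of a TSS, and Hist1h2al was wider than 42.0% of them. Together the 7 peaks covered 3947 bp of the 2.22 Mb cluster.

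**Figure D3:**
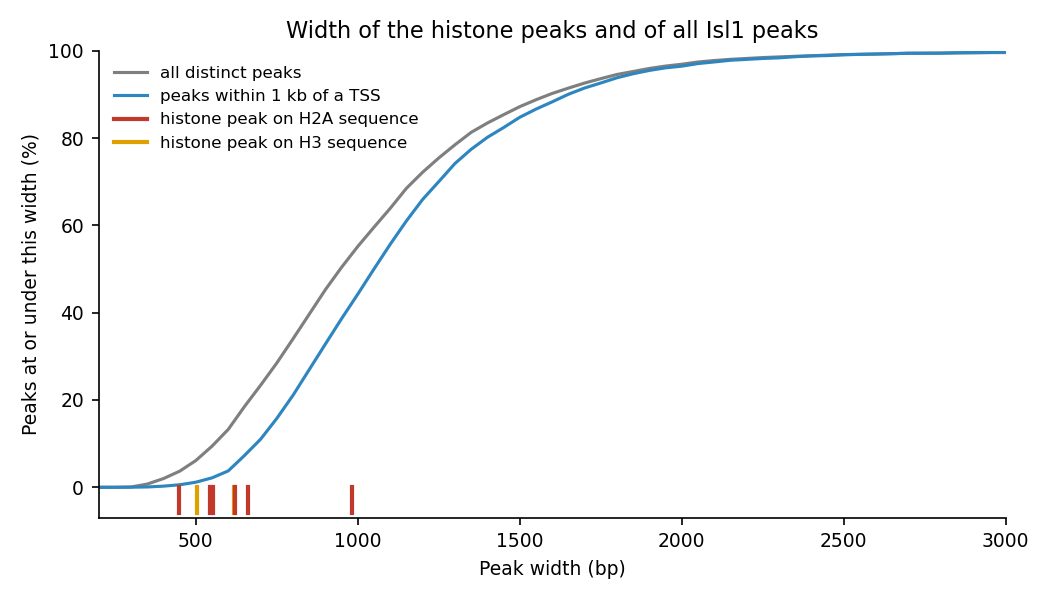
Cumulative share of peaks (y axis, %) at or under a width (x axis, bp, shown to 3000) for all distinct peaks and for peaks within 1 kb of a TSS, with a tick under the axis for each histone peak (red on H2A sequence, yellow on H3 sequence). The ticks stand at 449 to 662 bp, left of the medians of 947 and 1050 bp, and 1 tick at 982 bp is Hist1h2al.

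The middle of each peak was richer in GC than the whole. GC content over the whole peak was 54.4 to 62.4% with a median of 59.6%, against a median of 60.8% for all peaks and 67.6% for peaks within 1 kb of a TSS. In the central 200 bp it was 66.5 to 73.5% with a median of 69.25%, against 66.5 and 74.0%. The ratio of observed to expected CpG was 0.747 to 0.960 with a median of 0.907, against medians of 0.573 and 0.819. Each of the 8 peaks held 35 to 56 CpG.

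How often the sequence under a peak recurs in the genome was measured by cutting it into all its words of 31 bases and counting each word in the mm9 genome on both strands. A peak was called multi-copy where the median word of its central 200 bp occurred at 2 or more places. All 8 histone peaks were multi-copy (67.6 to 100% by the Wilson interval), against 46.50% of all peaks and 2.62% of the peaks within 1 kb of a TSS. The median word occurred 9 times at Hist1h3i and Hist1h3a, 12 times at Hist1h2an, 16 times at Hist1h2ah and Hist1h2ag, 17 times at Hist1h2bb, 18 times at Hist1h2ad and 5 times at Hist1h2al. The H2A peaks of the cluster were thus higher than the H3 peaks, and their most frequent word occurred 22 times against 12 in the H3 peaks. With words of 75 bases the medians were 7 to 13 in the 7 cluster peaks and 1 at Hist1h2al, so 7 of 8 remained multi-copy. With the central 400 bp, 7 of 8 were multi-copy and Hist1h2bb was not.

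The recurring words were those of the coding match. Of all words of a peak, 40.2% at Hist1h2bb and 57.9 to 65.3% at the other 7 occurred at 2 or more places. Among words wholly outside the coding match, the 7 cluster peaks held 0% that recurred, over 35 to 213 words each. Within the match, the 6 peaks on an annotated gene of the cluster held 78.6 to 100% recurring words, Hist1h2al 83.8% and Hist1h2bb 56.1%. Hist1h2al also differed in its surroundings, where 42.3% of the words recurred and the most frequent occurred 128053 times. At each of the 7 cluster peaks, the interval thus joined a recurring coding stretch to sequence that occurs at 1 place. The study aligned reads with default settings of bowtie2, which reports 1 place for a read that fits several. The part of read placement in these peaks was not tested.

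**Figure D4:**
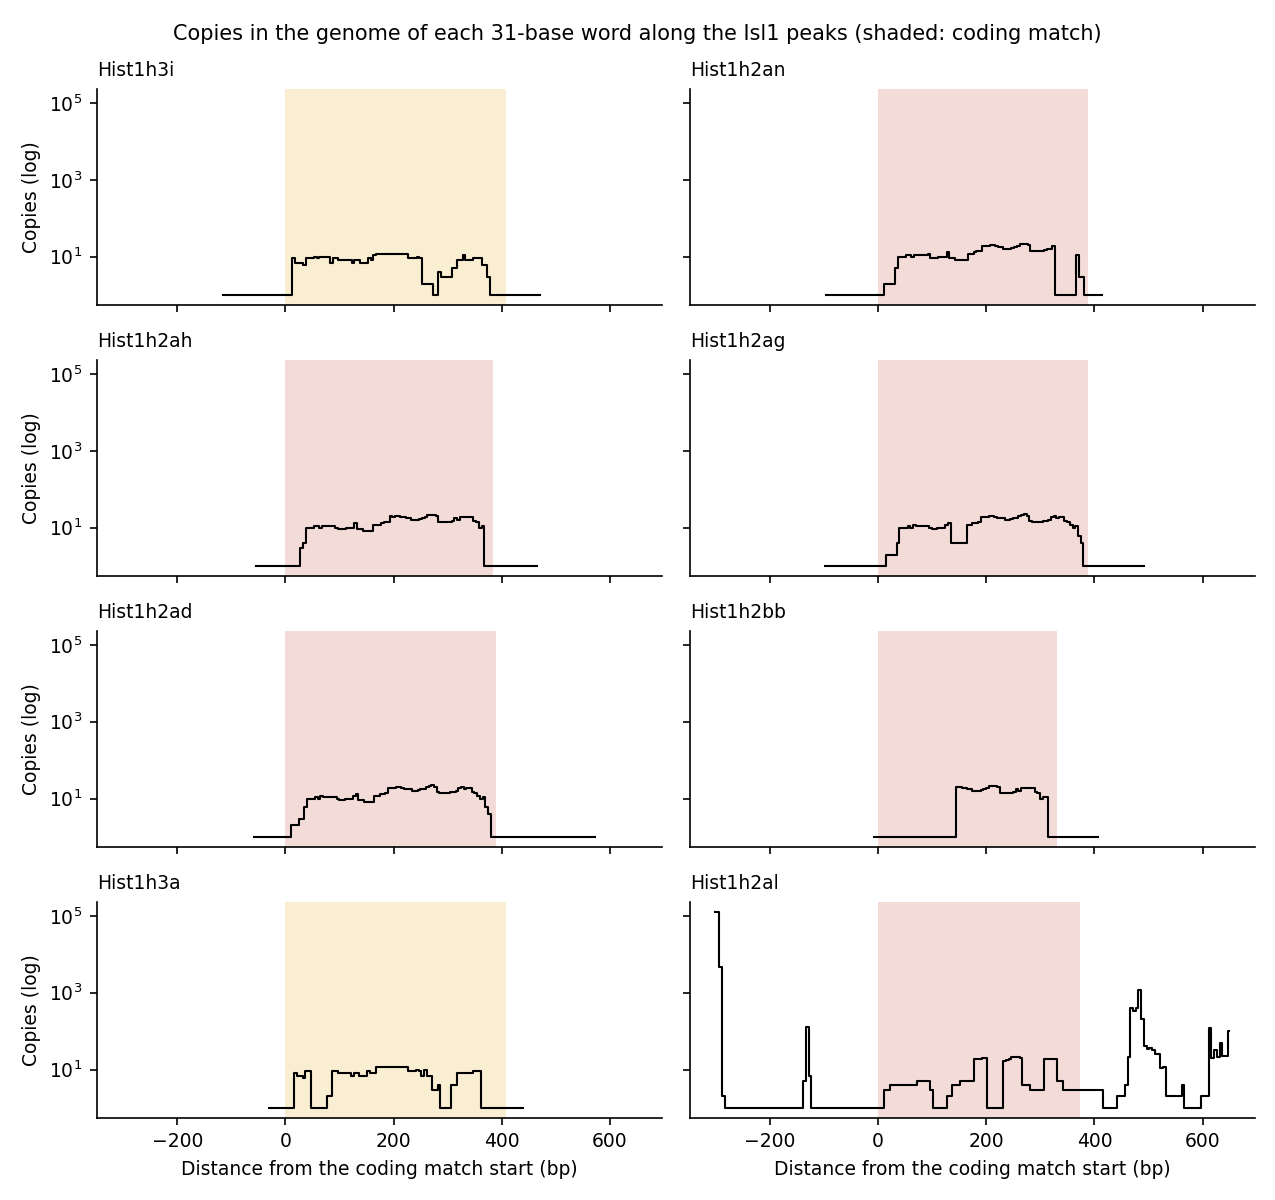
Number of places in the mm9 genome (y axis, log scale) at which each 31-base word along a peak occurs, against the distance in bp of the word centre from the start of the coding match, with 1 panel per peak and the match shaded (red H2A, yellow H3). In the 7 cluster peaks the line is at 1 outside the shaded stretch and reaches 12 (H3) or 22 (H2A) inside it, while Hist1h2al has further repeats on either side.

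Genes with and without a peak were compared within the classes that had peaks. Of the 67 genes, 63 have an unspliced coding sequence whose words could be counted. The 5 H2A genes with a peak had 83.8 to 100% recurring words with a median of 96.6%, against 11.8 to 100% with a median of 87.5% in the 14 H2A genes without one. Recurring words alone did not separate them, because 4 H2A genes without a peak had 100% against 2 with a peak. Coding GC content was 67.5 to 70.3% with a median of 69.7% in the H2A genes with a peak and 61.0 to 70.3% with a median of 68.8% in those without. The H3 genes with a peak had 78.6 and 93.9% recurring words and lay within the 79.4 to 100% of the 9 without, or just below it.

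Single genes show how close the sequences with and without a peak were. Differences are mismatches among aligned coding bases, and bases without a counterpart were not counted. Hist1h2ai had no peak and differed from Hist1h2ah by 2 of 384 aligned coding bases. Hist1h2ae had none and differed from Hist1h2ad by 3 bases, with its TSS 3509 bp from the midpoint of the Hist1h2ad peak. Hist1h2ao and Hist1h2ap had none and differed from Hist1h2ag by 3 bases each. Hist2h2aa1 and Hist2h2aa2, in another cluster, had 2 mismatches to Hist1h2al, fewer than the 28 between Hist1h2al and its nearest gene with a peak. Their coding sequences have 390 bases each, against 375 in Hist1h2al, so some of their bases had no counterpart. Among H3 genes, Hist1h3h had no peak and differed from Hist1h3i by 4 bases, while the genes with peaks, Hist1h3i and Hist1h3a, differed from each other by 7. Of the 14 H2A genes without a peak, 8 had at most 5 mismatches to a gene with one, with unmatched bases left out.

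**Figure D5:**
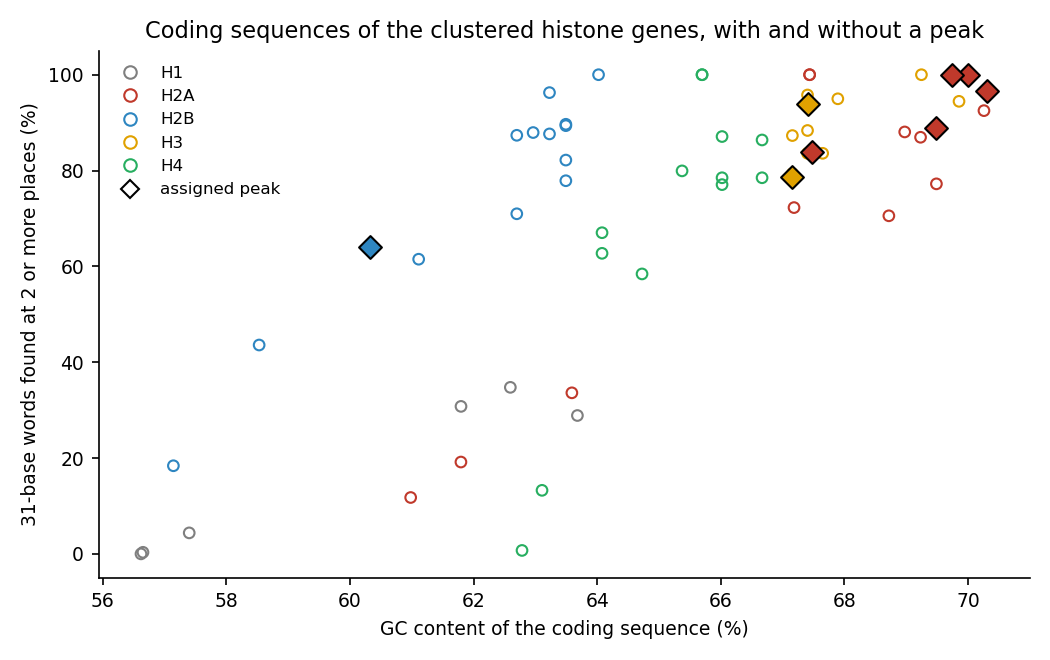
Coding sequences of the 63 clustered histone genes with an unspliced coding sequence, by GC content (x axis, %) and the share of 31-base words found at 2 or more places (y axis, %), coloured by class. Filled diamonds are genes with an assigned peak, which for H2A lie between 83.8 and 100% on the y axis among open circles of genes without one, and the blue diamond is Hist1h2bb, whose peak lies beside the gene.

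Histone genes outside the clusters were set beside the clustered ones. Replacement histones and histone variants are mostly made outside S phase as well. Of the 12 listed, 9 had an assigned peak (75%, 46.8 to 91.1%), beside 34.20% of protein-coding genes and 6.18 to 21.8% for the clustered genes. The list was chosen with earlier results of these data known, and the difference was not tested. It leaves out H2al1n, H2al1a, H2afb3, H2afy3, H2afb1 and H1fnt, which had 14 peaks, 0 of them within 1 kb of the TSS. For 8 of the 9 listed genes a peak was within 1 kb of the TSS, with widths from 839 to 2026 bp and a median of 1380 bp. Of these peaks 0 was multi-copy, near the 2.62% of all peaks within 1 kb of a TSS. The 8 genes were H3f3a, which encodes H3.3, the H2A variants H2afx, H2afz, H2afv, H2afy and H2afy2, and the linker histones H1f0 and H1fx. H2afj had a peak of 490 bp at 8577 bp from its TSS, and H3f3b, Cenpa and H1foo had none. H3f3a had a further peak, 479 bp wide and 35730 bp from its TSS. The promoter peak at H3f3a was 1435 bp wide with its midpoint 109 bp upstream of the TSS, and that at H2afz was 1361 bp wide at 242 bp downstream. The narrowest of these promoter peaks, at H2afv with 839 bp, was wider than the 7 histone peaks of the cluster. So were most peaks near a TSS, since 8.12% of all peaks within 1 kb of a TSS were at or under 662 bp, the widest of the 7.

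Factors that make and process clustered histone mRNA were also examined. Of 25 listed, 11 had an assigned peak (44.0%, 26.7 to 62.9%), each with a peak within 1 kb of the TSS. These included Casp8ap2, a component of the histone locus body, with a peak of 734 bp, Hinfp, a transcription factor of H4 genes, with 1045 bp, and Pou2f1, an octamer-binding factor, with 2361 bp. Ccne1 and Ccne2, the E-type cyclins, had peaks of 1542 and 1535 bp, and E2f1 had one of 1106 bp. Npat, the coactivator of histone genes that cyclin E and Cdk2 act on, Slbp, which binds the mRNA stem-loop, and Lsm10 and Lsm11 of the U7 particle had none. The interval holds the 34.20% of all protein-coding genes.

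Of 18 histone chaperones, 8 had an assigned peak (44.4%, 24.6 to 66.3%), 7 of them within 1 kb of the TSS. This interval also holds the 34.20% of all protein-coding genes. Asf1a, which hands H3 and H4 to other chaperones, had a peak of 1673 bp, and Hira, the chaperone of H3.3, had one of 1040 bp at 647 bp from its TSS. Chaf1a and Chaf1b, which deposit H3 at replication forks, had none. The promoter peaks of the chaperone list had a median width of 1040 bp and those of the mRNA list 1073 bp. Both were near the 1050 bp of all peaks within 1 kb of a TSS. Of these promoter peaks 0 in either list was multi-copy, near the 2.62% of all peaks within 1 kb of a TSS.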

How the data were processed

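ChIP-Seq was measured in 2 Isl1 replicates and 1 input, grouped by sample title. According to the study's methods, reads were mapped to mm9 by the authors with bowtie2 and cleared of duplicates by Picard 1.136. MACS14 peaks were freed of blacklisted regions, areas shared by the replicates were kept with bedtools 2.15, and HOMER assigned the closest TSS. The deposited list holds positions and distances in bp and no p-value, fold or coverage. How 2 replicates became 1 interval, and the placement of reads that fit several genes, can move edges and counts.

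Genes came from GENCODE M1 on NCBI m37, the mm9 sequence. RefSeq names on GRCm38 matched 8 of 8 transcripts, and no coordinates were taken from it. Words of 31 or 75 bases were counted on both strands, a method tested on simulated sequence. Peaks were aligned with Biopython 1.88 (match 1, mismatch -1, gap opening -3, gap extension -1). No test was made, since the list has no values per replicate, and shares carry 95% Wilson intervals that cover counting error only.

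The named genes were those with an assigned peak, with the 3 widest and 3 narrowest peaks, the closest pair, and peaks of the smaller clusters given in full, together with the genes of 3 lists (replacement histones, histone gene expression, histone chaperones). Pairs of sequences were compared by alignment, and the coding stretches shown, the like genes without a peak and the Hist1h2bb pseudogene were picked after their values were seen. Members and lists were chosen with earlier results of these data known. Alternatives were a minimum width of 500 bp, merging within 1000 bp, other distances, overlap in place of assignment, 75-base words and a 400 bp window.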

Additional observations from a re-analysis of the deposited data

How the results depend on the processing

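Of 25 alternative values for 7 results, 22 stayed within the bound set for them and 3 moved. The bound was a factor of 1.5 for counts, the Wilson interval for shares, and for medians the range of the single values, which is wide. Several alternatives could not change a value. No histone peak stood on a repeated line, the smallest gap between them was 3287 bp, and all 8 were already within 1 kb of the TSS. The median of a subset of values also cannot leave their range. The 22 include values fixed in these ways, so their number does not measure robustness. The 8 genes with an assigned peak became 5 when a gene needed its annotated TSS inside a peak and 15 when any peak within 1 kb of the TSS sufficed, since 1 peak can serve several genes by construction. The 5 histone TSSs inside histone peaks became 13 with TSSs up to 500 bp from a peak. Neither wider rule was applied to all protein-coding genes, so the 15 and the 13 have no background share. The number of peaks was 7 or 8 under each alternative, and without Hist1h2al, an alternative added after the data were seen, the median width was 553 bp and the median spacing 93.7 kb instead of 172 kb, a change of over 1.5 times that lies within the range of the spacings. With peaks of at least 500 bp, which leaves out Hist1h2bb, the median spacing was 218 kb. Restricting the widths to single-copy peaks gave no value, because 0 of the 8 are single-copy. No paired analysis was possible because the list combines both replicates, and for the same reason no replicate could be left out. A list without scores limits what can be read: weak and strong peaks look alike, and genes without a peak may lie just under the threshold.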

Other observations

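Symbols of other histone genes outside the lists also occurred in the peak list, and they were picked after their values were seen. H2al1n, H2al1a, H2afb3, H2afy3, H2afb1 and H1fnt, several of which are known from the testis, had 14 peaks between them, and 0 of the 14 were within 1 kb of the assigned TSS, where 38.50% of all peaks were. The distances ran from 9.30 kb at H1fnt to 744 kb at H2afb3, and H2al1n alone had 6 peaks at 20.0 to 374 kb. The median word of the central 200 bp occurred at 2 to 2884 places in these 14 peaks, so all 14 were multi-copy, as were 46.50% of all peaks. The Vmn1r221 peak inside the Hist1 span was 1402 bp wide with a GC content of 61.1%, its median central word occurred at 22 places, and it shared no run of 31 bases with a clustered histone coding sequence.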
